A study of Mus musculus with 11 samples.

Results

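The nuclear genes of the mitochondrial respiratory chain were examined in mouse hepatocytes that lacked Nemo, Cxcr6, both or neither. The set was taken by gene symbol: every gene whose symbol begins with Nduf, Uqcr, Cox4 to Cox8 or Atp5, together with Sdha, Sdhb, Sdhc and Sdhd, with pseudogene symbols left out. It held 91 of the 30142 genes with a row of their own on the array, and 87 of the 18337 genes tested, because 4 members (Ndufa4l2, Cox6b2, Cox7b2 and Cox8b) lay below the low-signal limit. By complex it held 36 complex I genes, 4 of complex II, 8 of complex III, 18 of complex IV and 18 of the ATP synthase, plus 7 complex I assembly factors (Ndufaf1 to Ndufaf7), which help build the complex and are not part of it. The array's Atp5sl is now named Dmac2 and its Atp5f1 is now Atp5pb. Dmac2, counted with the ATP synthase by its former symbol, is also a complex I assembly factor, so 8 members are not subunits.

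All RNA came from hepatocytes of male mice aged 12 weeks, measured on 11 whole-transcript expression arrays. The wildtype group (n = 2) had the source name Nemo cre-, and the Nemo KO group (n = 3) had Nemo cre+ and carried a deletion of Nemo in liver parenchymal cells. The Cxcr6 KO group (n = 3) had the source name Nemo_CXCR6 cre-, and the double KO group (n = 3) had Nemo_CXCR6 cre+ and lacked both genes. Thus each Nemo comparison lies within a source line, whereas Cxcr6 status and source line cannot be told apart. The groups without Nemo are cre+ and the others cre-, so loss of Nemo and the presence of Cre cannot be told apart either. The labels do not name the promoter that drives Cre, and they call the arrays of a group biological replicates without saying that each is a separate mouse, so p-values measure the spread between these samples only. Nemo, encoded by Ikbkg, is needed for the IkB kinase complex to activate NF-kB, and Cxcr6 is a chemokine receptor of T and NKT cells. The mean log2 signal of Ikbkg lay between 9.05 and 9.32 in the 4 groups and that of Cxcr6 between 5.18 and 5.41, but the position of the probes relative to the deletions was not known here, so these rows check nothing.

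Values are log2 signals as deposited, where a difference of 1 is a doubling. Differences are given ± the standard error from limma, fitted over all 4 groups, and a gene is called when its two-sided p, adjusted by Benjamini-Hochberg over the 18337 genes, is under 5%.

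The respiratory chain sits in the inner mitochondrial membrane. Complexes I and II pass electrons from NADH and succinate to coenzyme Q, complex III passes them to cytochrome c, and complex IV reduces oxygen. Complexes I, III and IV pump protons outward, and the ATP synthase uses their return to make ATP, which hepatocytes spend on glucose, urea and protein synthesis. Most subunits are encoded in the nucleus and imported, while a small core of complexes I, III, IV and the ATP synthase is encoded by mitochondrial DNA.

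Promoter sequences of members were read from the RefSeq windows of assembly GRCm38.p6, which run from 250 bases before to 50 bases after an annotated start, and 74 of the 91 members had 79 such windows. NRF1 (nuclear respiratory factor 1) and GABP (an ETS family factor, also called NRF2) are known activators of respiratory chain genes. The NRF1 letters GCGCNNGCG, where N is any base, stood on either strand in 32 member windows (40.5%) and in 12.1% of all 32851 windows. The stricter form GCGCATGCG, which the first pattern includes, stood in 9 (11.4%) and in 1.75%. The ETS letters CCGGAAG stood on either strand in 18 (22.8%) and in 8.86%, and the NF-kB letters GGACTTTCC on either strand in 0 and in 0.344%. A match is a description of letters and not a binding site, and its absence says only that these letters are not in the window. The fixed bases of GCGCNNGCG are all G or C, and its share was not set against windows of like base content. The 150 bases before the start are shown for the 6 members that fell in double KO relative to Cxcr6 KO, have a single window and hold an NRF1 or ETS match there, because they let the motifs be read beside genes that were called. They are 6 of the 13 members that fell: Atp5j2, Cox7a1, Ndufv3 and Sdhb also have a single window and hold neither match in those 150 bases, Dmac2 and Ndufa5 have several windows, and Uqcrq has none. Capitals mark the matches, all bases are written 5′ to 3′ on the gene's strand, and the positions are chr2:174464102-174464251 (minus strand) for Atp5e, chr5:108434400-108434549 (minus) for Atp5k, chr8:83566608-83566757 (plus) for Ndufb7, chr4:123718187-123718336 (minus) for Ndufs5, chr17:66101560-66101709 (minus) for Ndufv2 and chr9:50603850-50603999 (minus) for Sdhd.
Atp5k: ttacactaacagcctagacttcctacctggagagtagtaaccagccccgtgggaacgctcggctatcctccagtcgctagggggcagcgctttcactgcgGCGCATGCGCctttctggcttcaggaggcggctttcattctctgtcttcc
Ndufs5: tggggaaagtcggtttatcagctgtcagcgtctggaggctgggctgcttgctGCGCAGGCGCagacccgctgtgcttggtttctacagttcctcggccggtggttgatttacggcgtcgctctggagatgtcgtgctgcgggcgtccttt
Ndufv2: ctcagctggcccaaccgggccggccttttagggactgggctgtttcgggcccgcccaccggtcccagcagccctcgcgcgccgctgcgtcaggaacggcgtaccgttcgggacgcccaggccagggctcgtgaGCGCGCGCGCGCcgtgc
Sdhd: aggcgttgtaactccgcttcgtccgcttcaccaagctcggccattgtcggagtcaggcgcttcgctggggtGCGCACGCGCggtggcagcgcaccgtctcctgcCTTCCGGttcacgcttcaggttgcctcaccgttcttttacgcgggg
Ndufb7: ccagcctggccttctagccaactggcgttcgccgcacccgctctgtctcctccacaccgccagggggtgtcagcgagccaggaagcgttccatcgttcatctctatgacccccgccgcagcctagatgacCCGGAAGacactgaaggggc
Atp5e: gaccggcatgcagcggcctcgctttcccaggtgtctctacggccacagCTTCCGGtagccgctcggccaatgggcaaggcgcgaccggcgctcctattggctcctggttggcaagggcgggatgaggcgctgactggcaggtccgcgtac
Atp5k, Ndufs5 and Ndufv2 carry the NRF1 letters, with overlapping matches on both strands, and Atp5k has the strict form. Ndufb7 and Atp5e carry the ETS letters, and Sdhd carries both kinds.

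Across the members, signal was lowest in Nemo KO, next lowest in double KO, and highest in Cxcr6 KO. The mean log2 signal over the 87 members tested was 10.30 and 10.16 on the 2 wildtype arrays and 9.70, 9.32 and 9.80 on the Nemo KO arrays. It was 10.29, 10.50 and 10.50 in Cxcr6 KO and 10.17, 9.82 and 9.88 in double KO. Thus every Nemo KO array lay below both wildtype arrays and every double KO array below every Cxcr6 KO array, while double KO replicate 1 lay above wildtype replicate 2. Over all genes tested the array means ran from 7.95 to 8.13. Over the 3645 genes outside the set with a mean log2 signal of at least 10 they ran from 12.32 to 12.79. Group means of those genes had the members' order: 12.41 in Nemo KO, 12.56 in double KO, 12.64 in wildtype and 12.72 in Cxcr6 KO. The order of group means was Nemo KO, double KO, wildtype, Cxcr6 KO for 66 of the 87 members; Nemo KO had the lowest mean for 79 and Cxcr6 KO the highest for 75. Nemo KO replicate 2 alone gave the lowest value of all 11 arrays for 71 members. In bulk RNA, fewer hepatocytes and less of these RNAs per hepatocyte cannot be told apart.

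**Figure D1:**
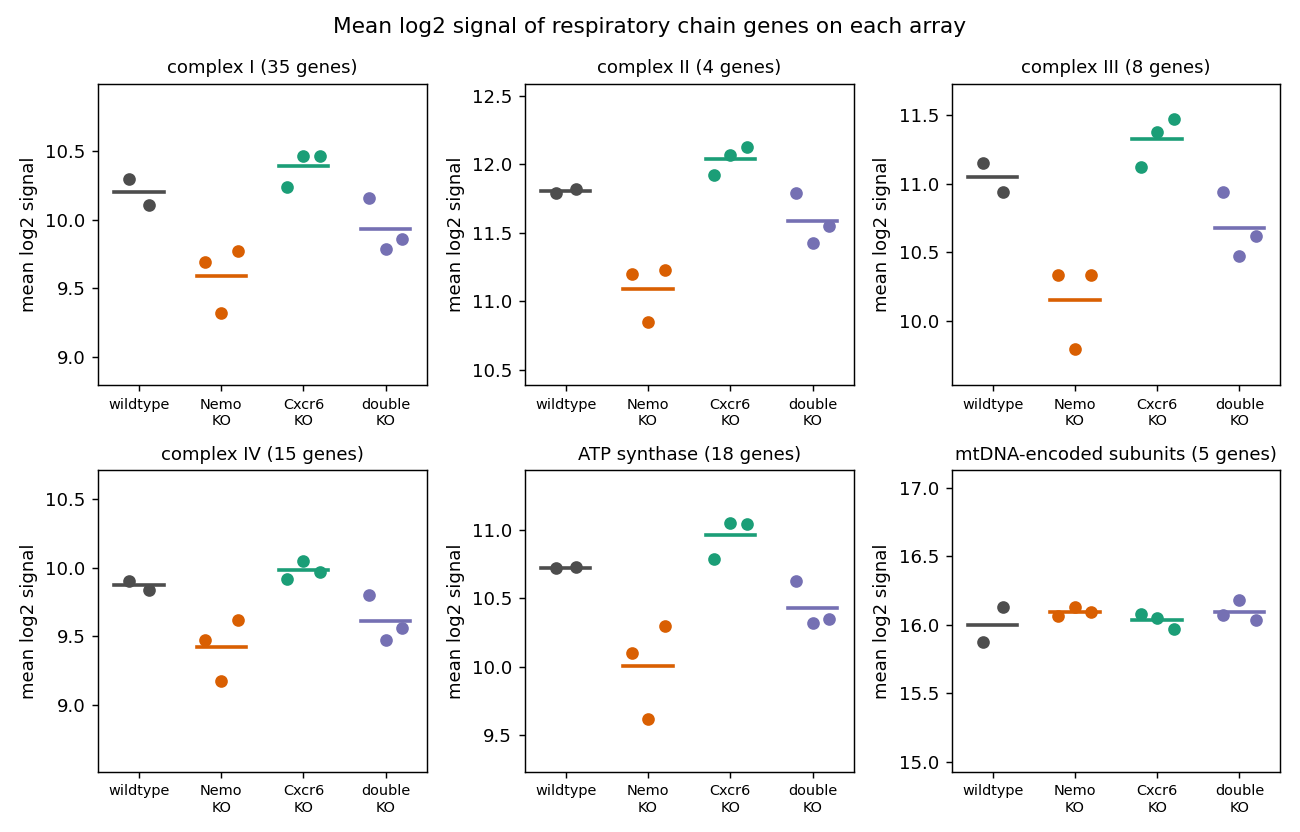
Mean log2 signal (vertical axis) of the members of each complex, and of 5 subunits encoded by mitochondrial DNA, on each of the 11 arrays; each point is an array, lines are group means, and every panel spans 2.2 log2 units. In each of the 5 nuclear panels all 3 Nemo KO points lie below both wildtype points, while the mitochondrial DNA panel spans only 15.87 to 16.18.

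The comparison of Nemo KO with wildtype asks what loss of Nemo, together with Cre, did where Cxcr6 was intact. Of the 87 members 84 had a lower mean in Nemo KO, as did 55.4% of all genes tested, with a median log2 difference of -0.61 against -0.04 for all genes tested. None was called by limma at 5% (0 of 87, with 29 of 18337 genes, 0.158%, called in either direction), whereas 74 members had an unadjusted p under 0.05, as did 4506 of all genes. The smallest adjusted p of a member was 0.0553. In 78 members every Nemo KO array lay below both wildtype arrays, a pattern shown by 24.7% of all genes tested. Leaving out Nemo KO replicate 2, the lowest array, left 84 members lower, 78 without overlap (27.2% of all genes) and a median of -0.49. The count of calls moved with single arrays: 26 members were called without Nemo KO replicate 3, with 1022 of all genes (5.56%), and 16 without wildtype replicate 2, with 2380 (12.9%). It was 29 after each array was set to a common median, with 1319 of all genes (7.22%), of which 1230 were lower. Under that scaling all genes had a median of -0.12 and the members one of -0.69.

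Double KO against Cxcr6 KO asks the same where Cxcr6 was absent, and shares no array with the first. Here 13 members fell and 0 rose. Of all genes tested 7.41% were called, 3.96% lower and 3.44% higher. As in the first comparison 84 members had a lower mean (60.6% of all genes), with a median of -0.46 against -0.06 for all genes, and 54 had an unadjusted p under 0.05, as did 5344 of all genes. In 56 members all double KO arrays lay below all Cxcr6 KO arrays, against 24.4% of all genes. Cox6a2 is among these 56 and entered the tests only through its Cxcr6 KO mean. The 13 calls were 5 of complex I (Ndufs5, Ndufb7, Ndufv2, Ndufv3, Ndufa5), 2 of complex II (Sdhb, Sdhd), Uqcrq of complex III, Cox7a1 of complex IV, and Atp5k, Atp5e, Atp5j2 and Dmac2 among the ATP synthase genes. No member was called by limma when Cxcr6 KO replicate 2 or 3 or double KO replicate 2 or 3 was left out, and the calls among all genes were then 201, 116, 535 and 205, against 1358 with every array. The count was 6 members without Cxcr6 KO replicate 1, with 529 of all genes (2.88%). It was 4 without Nemo KO replicate 1, with 762 (4.14%), and 34 without Nemo KO replicate 2, with 2204 (11.9%); both arrays enter through the shared estimate of spread. Without double KO replicate 1, the highest of its group, 86 members were lower, with a median of -0.56.

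Taking these comparisons side by side, 81 of 87 members (93.1%) were lower in both, as were 39.4% of all genes tested. For 50 members (57.5%) the groups did not overlap in either, against 12.2% of all genes. The 6 exceptions to lower in both were Cox4i2, Cox6a2 and Cox8c, which were higher in Nemo KO than in wildtype, and Sdhc, Cox6a1 and Cox8a, which were not lower in double KO than in Cxcr6 KO. None of the 6 was called in either. Cox4i2, Cox6a2 and Cox8c lay close to the low-signal limit, with mean log2 signals over all arrays of 5.89, 5.29 and 5.82.

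**Figure D2:**
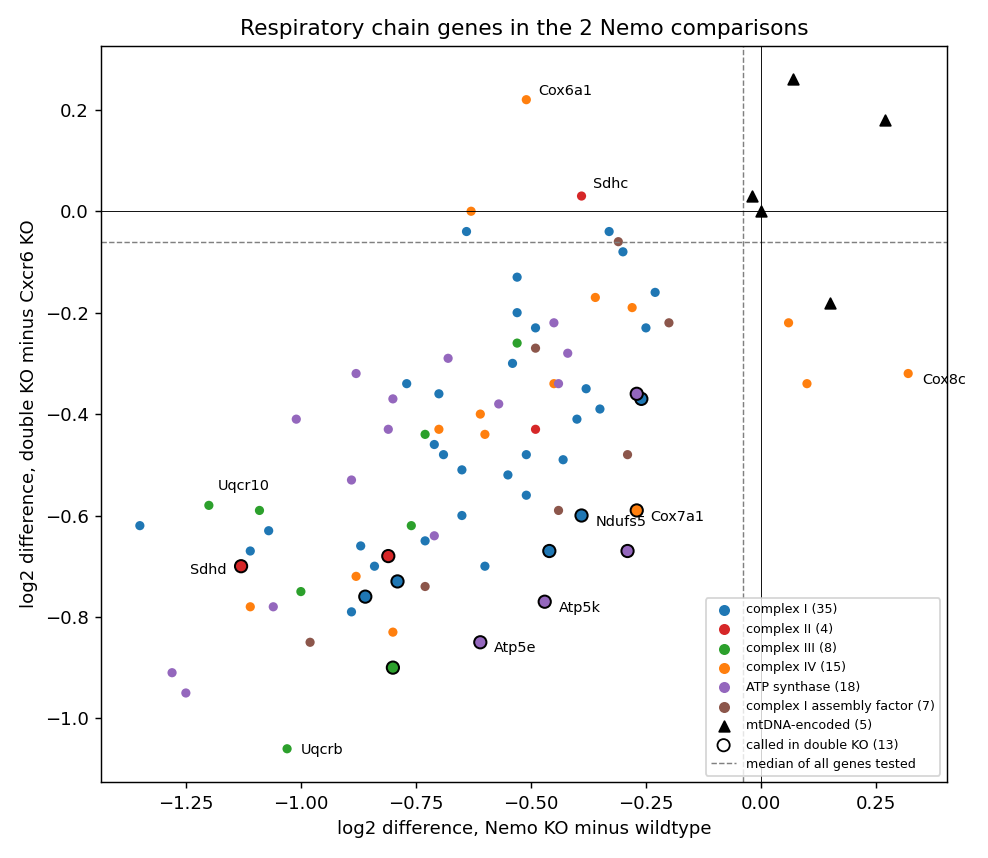
Log2 difference of each of the 87 members in Nemo KO minus wildtype (horizontal axis) and in double KO minus Cxcr6 KO (vertical axis), coloured by complex; black outlines mark the 13 members called in the second comparison, triangles are 5 subunits encoded by mitochondrial DNA, and dashed lines are the medians of all genes tested. The lower left quadrant holds 81 members. The triangles lie from -0.02 to 0.27 on the horizontal axis and from -0.18 to 0.26 on the vertical axis.

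Complex I takes electrons from NADH. All 35 of its tested genes had lower means in both comparisons, with medians of -0.55 in Nemo KO and -0.48 in double KO. In the latter 5 were called (14.3%, against 3.96% of all genes called lower). Ndufs5, an accessory subunit, was 7.32 and 7.18 in wildtype, 6.85, 6.72 and 7.02 in Nemo KO, 7.46, 7.57 and 7.47 in Cxcr6 KO and 7.08, 6.74 and 6.88 in double KO. Neither Nemo comparison overlapped, and Ndufs5 fell in double KO by 0.60 ± 0.11 (adjusted p 0.0204), while the difference of -0.39 in Nemo KO was not called. Ndufb7, an accessory subunit of the membrane arm, was 6.75 and 6.42 in wildtype, 6.03, 6.01 and 6.34 in Nemo KO, 6.71, 7.04 and 6.98 in Cxcr6 KO and 6.42, 6.19 and 6.11 in double KO. Its double KO and Nemo KO arrays occupied nearly the same range, below those of their comparison groups. Ndufb7 fell in double KO by 0.67 ± 0.14 (adjusted p 0.0304). Ndufv2 and Ndufv3 belong to the NADH-oxidising module. In double KO Ndufv2 fell by 0.76 ± 0.17 (0.0347) and Ndufv3 by 0.73 ± 0.18 (0.0419), and in Nemo KO Ndufv2 differed by -0.86 ± 0.19 (0.0676). Ndufa5, named because it was among the calls and not by the naming rule, fell by only 0.37 ± 0.09 (0.043).

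Outside these calls the complex I differences ran from -1.35 to -0.23 in Nemo KO and from -0.79 to -0.04 in double KO. The most negative in Nemo KO was Ndufb4b, a copy of Ndufb4 whose row can share signal with its relatives. The rows of Ndufb4 and Ndufa11 carry several symbols and so are not members; their differences in Nemo KO were -0.86 and -0.21. Ndufa4, first assigned to complex I and now placed with complex IV, had a difference of -0.77 ± 0.21 in Nemo KO and -0.34 ± 0.19 in double KO, neither called. Ndufa4l2, its low-oxygen relative, lay between 4.22 and 4.51 on all 11 arrays, below the limit for testing. The 7 assembly factors were lower in both comparisons, with medians of -0.44 and -0.48 and no call. Ndufaf5 had the same value of 6.14, to 2 decimals, on 5 of 11 arrays, so its spread is not a usual one.

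Complex II, the succinate dehydrogenase, is shared between the chain and the citric acid cycle and has no subunit encoded by mitochondrial DNA. Sdhd, a membrane anchor, was 12.94 and 13.00 in wildtype, 12.10, 11.52 and 11.90 in Nemo KO, 13.22, 13.39 and 13.44 in Cxcr6 KO and 12.88, 12.46 and 12.59 in double KO. The Nemo KO arrays lay below those of every other group, and double KO overlapped neither Nemo KO nor Cxcr6 KO. Sdhd fell in double KO by 0.70 ± 0.16 (adjusted p 0.034); in Nemo KO its difference was -1.13 ± 0.18 with the smallest adjusted p of any member, 0.0553. Sdhb, the iron-sulphur subunit, was 10.72 and 10.68 in wildtype, 9.94, 9.53 and 10.22 in Nemo KO, 10.94, 11.04 and 11.04 in Cxcr6 KO and 10.54, 10.22 and 10.20 in double KO. No array of a Nemo-deleted group reached its comparison group. Sdhb fell in double KO by 0.68 ± 0.16 (0.0417) and differed by -0.81 ± 0.18 in Nemo KO (0.0696).

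The other complex II genes were less alike. Sdha, the flavoprotein that oxidises succinate, was 13.31 and 13.30 in wildtype, 12.92, 12.66 and 12.86 in Nemo KO, 13.26, 13.47 and 13.48 in Cxcr6 KO and 12.99, 12.79 and 13.14 in double KO. Its differences were -0.49 ± 0.13 in Nemo KO (adjusted p 0.0797) and -0.43 ± 0.11 in double KO (0.053). Sdhc, the other membrane anchor, was 10.17 and 10.29 in wildtype, 9.86, 9.71 and 9.94 in Nemo KO, 10.26, 10.36 and 10.58 in Cxcr6 KO and 10.77, 10.26 and 10.26 in double KO. Double KO and Cxcr6 KO overlapped for Sdhc, with a difference of 0.03 ± 0.15 that was -0.14 without double KO replicate 1 and -0.04 without Cxcr6 KO replicate 1. Between double KO and Nemo KO, Sdhc differed by 0.59 ± 0.15 (0.122).

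Complex III passes electrons from coenzyme Q to cytochrome c. Its 8 genes in the set, which leaves out cytochrome c1 (Cyc1), had the most negative median of any complex in both comparisons. The medians were -0.90 in Nemo KO and -0.60 in double KO. For Cyc1 the difference from wildtype was -0.15 ± 0.17 on deletion of Nemo alone. Its double KO difference from Cxcr6 KO was -0.2 ± 0.15. Neither Cyc1 difference was called, and both were smaller in size than those of any of the 8 genes. Uqcr10, a small accessory subunit, was 8.76 and 8.76 in wildtype, 7.70, 7.17 and 7.80 in Nemo KO, 8.81, 9.05 and 9.18 in Cxcr6 KO and 8.68, 8.16 and 8.46 in double KO. The Nemo KO arrays were the lowest of the 4 groups. The difference was -1.20 ± 0.21 in Nemo KO (adjusted p 0.0572) and -0.58 ± 0.19 in double KO (0.0859), so neither was called. Uqcrh, the hinge protein, differed by -1.09 ± 0.22 in Nemo KO (0.0654). Uqcrq was the complex III gene called: it fell in double KO by 0.90 ± 0.22 (0.0443) and is named for that call. Uqcrc1, a core protein, had a difference of -0.73 ± 0.17 in Nemo KO (0.0706).

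Complex IV, cytochrome c oxidase, has many subunits with a common form and a tissue- or condition-specific form, and its genes were the least uniform. Their medians were -0.51 in Nemo KO and -0.34 in double KO, and 12 and 13 of 15 were lower. Those higher in Nemo KO, Cox4i2, Cox6a2 and Cox8c, had mean log2 signals over all arrays of 5.89, 5.29 and 5.82, close to the low-signal limit. Those not lower in double KO, Cox6a1 and Cox8a, had means of 13.7 and 11.96, well above it. Cox7a1, the heart and muscle form, was 6.24 and 6.45 in wildtype, 6.22, 5.80 and 6.22 in Nemo KO, 6.33, 6.82 and 6.54 in Cxcr6 KO and 5.98, 6.02 and 5.91 in double KO. All double KO arrays lay below all others except Nemo KO replicate 2. Cox7a1 was the complex IV gene called: it fell in double KO by 0.59 ± 0.15 (adjusted p 0.0485). Its liver counterpart Cox7a2 differed by -0.40 ± 0.21 there and by -0.61 ± 0.24 in Nemo KO, neither called.

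The other pairs of isoforms were as follows. Cox4i1, the common form, differed by -0.45 ± 0.16 in Nemo KO and -0.34 ± 0.15 in double KO, and Cox4i2, a form known from lung, by 0.06 ± 0.12 and -0.22 ± 0.11. For subunit 6a the liver form Cox6a1 differed by -0.51 ± 0.19 and 0.22 ± 0.17, and the muscle form Cox6a2 by 0.10 ± 0.16 and -0.34 ± 0.15. None of these was called. The common Cox6b1 differed by -0.88 ± 0.24 in Nemo KO and -0.72 ± 0.22 in double KO (adjusted p 0.0864 and 0.0714), and Cox7b by -0.28 ± 0.15 and -0.19 ± 0.13. Cox8a, the common form of subunit 8, differed by -0.63 ± 0.19 and 0.00 ± 0.17. Cox6b2, Cox7b2 and Cox8b, forms of testis or muscle, lay between 3.48 and 5.28 on all arrays and were not tested. Cox5a, which binds the core of the enzyme, differed by -1.11 ± 0.25 in Nemo KO (0.0687), and Cox7c by -0.60 ± 0.14 (0.0714).

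The ATP synthase has a catalytic head, a stalk and a rotor in the membrane. All 18 of its genes were lower in both comparisons, with medians of -0.70 and -0.42. Atp5k, the membrane subunit e, was 7.44 and 7.45 in wildtype, 6.92, 6.73 and 7.29 in Nemo KO, 7.84, 8.07 and 8.01 in Cxcr6 KO and 7.44, 7.07 and 7.10 in double KO. The Cxcr6 KO arrays lay above those of all other groups. Atp5k fell in double KO by 0.77 ± 0.15 (adjusted p 0.0238), and Atp5e, the epsilon subunit of the central stalk, fell by 0.85 ± 0.19 (0.0329). Atp5j2, subunit f, fell by 0.36 ± 0.09 (0.0497) and Dmac2 by 0.67 ± 0.17 (0.045); these last 2 are named for their calls. Atp5pb, subunit b of the peripheral stalk, had the smallest p of the complex in Nemo KO, with -0.81 ± 0.17 (0.0661). Atp5l (subunit g) and its copy Atp5l2 differed by -1.25 and -1.28 in Nemo KO and by -0.95 and -0.91 in double KO, and the row of the pseudogene Atp5l-ps1, no member, by -1.20 and -0.93. These rows can share signal: the chosen Atp5l row is named for chromosome 5 and the gene lies on chromosome 9, where the gene's own row gave -0.55 and -0.34.

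**Figure D3:**
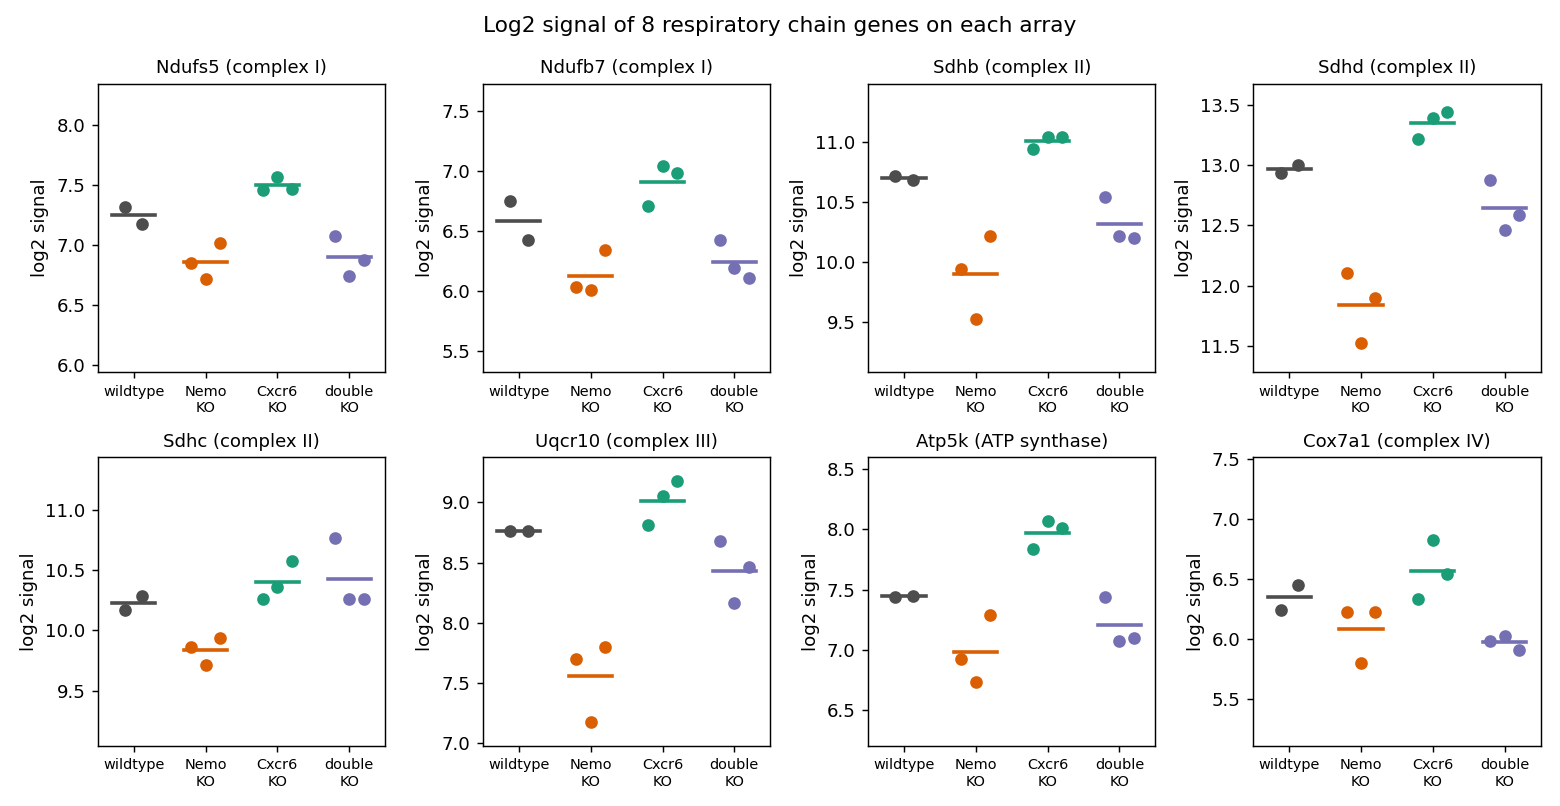
Log2 signal (vertical axis) of 8 members on each of the 11 arrays, with group means as lines; every panel spans 2.4 log2 units. In the Sdhb, Sdhd, Uqcr10 and Atp5k panels the Nemo KO points lie below the wildtype points and the double KO points below the Cxcr6 KO points, while in the Sdhc panel double KO and Cxcr6 KO overlap.

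Double KO against Nemo KO sets the groups that lack Nemo against each other. Of the 87 members 79 were higher in double KO and 8 lower, against 43.0% of all genes lower. Their median log2 difference was 0.38 against 0.04 for all genes, and 24 were higher without overlap, against 12.9% of all genes. Among genes outside the set with a mean log2 signal of at least 10, 28.0% were lower, with a median of 0.17. The 47 members at that level had a median of 0.47. No member was called by limma (0 of 87, with 0.594% of all genes called), and 34 had an unadjusted p under 0.05, as did 3078 of all genes. Sdhd and Uqcrc1 had the smallest adjusted p, 0.0655 each, with differences of 0.80 ± 0.16 and 0.76 ± 0.15. Uqcr10 followed with 0.87 ± 0.19 (0.0813). The median of the 87 members was 0.22 without Nemo KO replicate 2. Once arrays were set to a common median 3 members were called, with 201 of all genes (1.1%).

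Between Cxcr6 KO and wildtype 77 members were higher in Cxcr6 KO and 10 lower, against 48.2% of all genes lower. Their median was 0.21 against 0.01 for all genes, and 29 were higher without overlap, against 12.7%. Cox6a2, which entered the tests only through its Cxcr6 KO mean, is among these 29. Among genes outside the set with a mean log2 signal of at least 10, 41.7% were lower, with a median of 0.06. The 47 members at that level had a median of 0.21. No member was called (0 of 87, with 0.256% of all genes called by limma), and 6 members (6.9%) had an unadjusted p under 0.05, as did 2029 of all genes (11.1%). The median of the 87 members was 0.13 without wildtype replicate 2, when 63 were higher. This comparison and that of the Nemo-deleted groups both run across the source lines.

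The interaction tests whether the Nemo difference was the same with and without Cxcr6. By limma it called none of the members and none of all genes (0.0%), while 3 members (Cox6a1, Cox8a and Cox8c) and 2155 of all genes had an unadjusted p under 0.05. Of the members 23 had a negative interaction, against 45.4% of all genes. The median of the members was 0.15, against 0.03 for all genes and 0.01 for the members after quantile normalization. Genes outside the set with a mean log2 signal of at least 10 had a median of 0.13, with 33.4% negative. The 47 members at that level had a median of 0.26. The member with the smallest p, Cox6a1, had an interaction of 0.73 ± 0.25 with a 95% interval from 0.17 to 1.30. A difference in the Nemo effect between the lines is therefore not shown for any member, and these intervals are wide.

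The core subunits encoded by mitochondrial DNA were read from 5 rows, with differences from -0.02 to 0.27 in Nemo KO and from -0.18 to 0.26 in double KO. COX1, COX2, ND2, ND3 and ND6, the 5 that had a row with a single symbol, had medians of 0.07 in Nemo KO and 0.03 in double KO, and none was called. The mean over these 5 ran only from 15.87 to 16.18 over the 11 arrays. COX1 group means were 14.55 to 14.57 and COX2 group means 12.56 to 12.60. ND2 differed by 0.27 ± 0.18 in Nemo KO, with a 95% interval from -0.13 to 0.67, and by 0.18 ± 0.16 in double KO. ND3 was 19.54, 19.47 and 19.35 in Cxcr6 KO and 19.66, 19.77 and 19.70 in double KO, higher without overlap. Its means reached 19.71, near the array's highest value of 19.93, where differences are compressed. Whether nuclear and mitochondrial subunits differed from each other was not tested.

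The genes that work beside the complexes were counted from lists. Cytochrome c and the electron carriers had medians of -0.55 in Nemo KO and -0.31 in double KO over 7 genes, with no call. Cycs, cytochrome c itself, differed by -1.04 ± 0.30 in Nemo KO (adjusted p 0.0889). Among 39 assembly factors outside the symbol rule the medians were -0.36 and -0.24, and 1 was called lower in double KO (2.56%, against 3.96% of all genes). This was Coa5, needed to build complex IV, which fell by 0.57 ± 0.13 (0.038). The 12 coenzyme Q synthesis genes had a median of -0.15 in each comparison and no call.

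In Nemo KO 0 of 17 citric acid cycle genes were called, with a median of -0.62. In double KO 3 of 17 fell (17.6%, against 3.96% of all genes), with a median of -0.47. They were Pdha1, a subunit of pyruvate dehydrogenase (by 0.92 ± 0.19, adjusted p 0.0284), and the succinyl-CoA ligase subunits Sucla2 (by 0.53 ± 0.11, 0.0263) and Suclg2 (by 0.60 ± 0.12, 0.0269). Of 18 import and cristae genes 2 fell in double KO (11.1%, against 3.96% of all genes). These were Apool (by 0.41 ± 0.09, 0.0274) and Immt (by 0.41 ± 0.10, 0.0421), which shape the cristae. The 18 genes had medians of -0.45 in Nemo KO and -0.41 in double KO.

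Of 22 genes of mitochondrial biogenesis and mitochondrial DNA expression, 2 fell (9.09%, against 3.96% of all genes) and 1 rose (against 3.44% of all genes) in double KO against Cxcr6 KO, with a median of -0.22, and 0 were called in Nemo KO, with a median of -0.28. Ppara, a nuclear receptor that drives fatty acid oxidation, was 12.73, 13.18 and 13.02 in Cxcr6 KO and 11.39, 12.03 and 11.66 in double KO, and fell by 1.28 ± 0.16 (adjusted p 0.00856). In wildtype and Nemo KO it stood at 12.14 to 12.16 on all 5 arrays. The SD of Ppara was 0.01 in each of those groups, 0.23 in Cxcr6 KO and 0.32 in double KO. All 4 groups enter the shared estimate of spread, so the standard error and adjusted p of Ppara may be too small. Gabpa, the DNA-binding subunit of GABP, fell by 0.47 ± 0.10 (0.0268) and Gabpb2, a partner subunit, rose by 0.46 ± 0.11 (0.0378). Gabpb2 was lowest in Cxcr6 KO (mean 7.73), and its double KO mean (8.19) lay between Nemo KO (8.14) and wildtype (8.26). Among 15 genes of mitochondrial stress and antioxidant defence the medians were -0.52 and -0.21, and Ddit3, a stress-induced transcription factor, rose in double KO against Cxcr6 KO by 1.14 ± 0.22 (0.0226). The mean signal of Ddit3 in Cxcr6 KO, 7.50, was the lowest of the 4 groups, and that of double KO (8.64) lay between Nemo KO (8.37) and wildtype (8.80).

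The lower signal was not limited to the respiratory chain. Genes outside the set with a mean log2 signal of at least 10 (n = 3645) had medians of -0.24 in Nemo KO and -0.16 in double KO, against -0.71 and -0.44 for the 47 members at that level. Other groups, chosen after their values were seen, had differences of like size. The 42 cytosolic ribosomal protein genes had medians of -0.58 and -0.52, with 5 (11.9%) called lower in double KO. The 75 mitochondrial ribosomal protein genes had -0.42 and -0.34 with 8 (10.7%), and the 37 proteasome genes -0.49 and -0.43 with 7 (18.9%). Of all genes tested 3.96% were called lower there. Whether the members differed from these groups was not tested.

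Markers of some other cell types moved in the same comparisons. The hepatocyte markers (8 of 8 tested, such as Alb and Cps1) had array means of 18.06 to 18.43, medians of -0.04 in Nemo KO and -0.19 in double KO, and no call. Most of these lie near the top of the signal range (Alb at 19.82 to 19.93), where differences can be compressed, so the small medians do not show that hepatocyte RNA was alike. Hnf4a, a hepatocyte transcription factor and the listed marker with the lowest signal, was 13.65 and 13.08 in wildtype, 12.61, 12.24 and 12.73 in Nemo KO, 12.80, 13.00 and 13.17 in Cxcr6 KO and 12.74, 12.54 and 12.80 in double KO. All Nemo KO arrays lay below both wildtype arrays for Hnf4a, with a difference of -0.84 ± 0.20 (adjusted p 0.0736, not called), while double KO and Cxcr6 KO overlapped, with -0.30 ± 0.18 (0.315). Of the 10 endothelial cell markers all 10 rose in double KO, with a median of 1.84; their array mean was 7.25 and 7.18 in wildtype, 7.52 to 8.03 in Nemo KO, 6.51 to 7.22 in Cxcr6 KO and 8.37 to 9.27 in double KO. Of all genes tested 3.44% were called higher in double KO. Of the macrophage markers 4 of 10 rose (median 1.54), of the stellate cell markers 7 of 9 (1.16) and of the cholangiocyte markers 4 of 6 (1.20). In Nemo KO the medians were 0.45, 0.68, 0.33 and 0.27, with no call. The dividing-cell markers had an array mean of 5.77 on wildtype replicate 1 and 8.17 on wildtype replicate 2. It was 6.80 to 7.30 in Nemo KO, 5.78 to 5.97 in Cxcr6 KO and 6.94, 7.72 and 9.10 in double KO. All 7 dividing-cell markers tested had a higher mean in double KO than in Cxcr6 KO, 6 of them without overlap and 1 called (Ect2), with a median of 2.02, against 0.02 in Nemo KO. Alas2, the erythroid marker tested, fell in double KO by 1.60 ± 0.27 (0.0163). The 4 T, NK and NKT cell markers tested had medians of -0.10 in Nemo KO and -0.27 in double KO. Medians of the 3 neutrophil markers tested were 0.14 and 0.01, and of the 3 muscle markers -0.01 and -0.14. The 1 B cell marker tested differed by 1.12 and 0.55. None of the T, NK, NKT, neutrophil, muscle or B cell markers was called. The part of other cell types in the lower member signal was not tested.

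**Figure D4:**
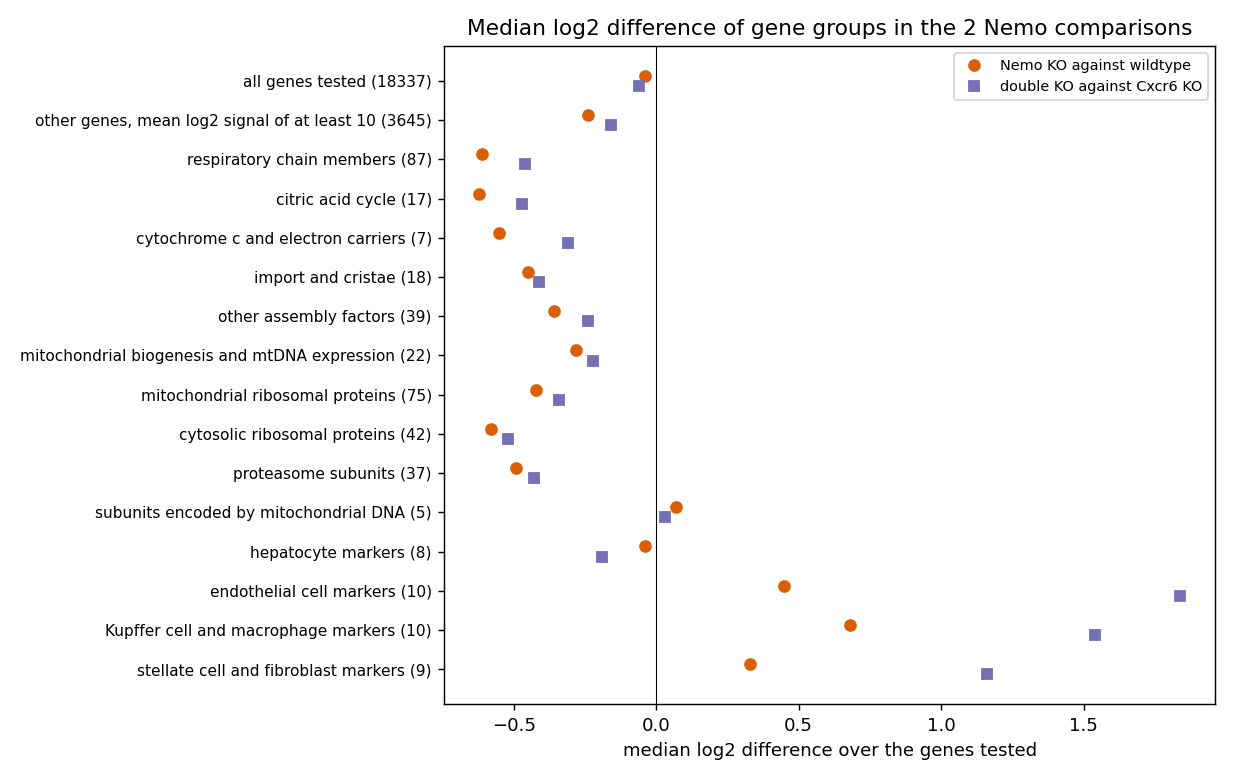
Median log2 difference (horizontal axis) of gene groups in Nemo KO against wildtype (circles) and double KO against Cxcr6 KO (squares), with the number of genes tested in brackets. The members, citric acid cycle, ribosomal protein and proteasome genes lie to the left of all genes tested, the mitochondrial DNA subunits near 0, and the endothelial, macrophage and stellate cell markers to the right.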

How the data were processed

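RNA from hepatocytes was measured on 11 arrays of 4 genotypes. The authors deposited log2 signals, 1 per row and array, in a table of 65956 rows; per the submitters' processing notes they used Affymetrix Expression Console, RMA and Transcriptome Analysis Console. Versions and the genome build are not given in the sources used here. Arrays carry no read depth, so their number limits the precision. Gene names came from the platform annotation (30604 rows with 1 symbol, 2146 with several, 33206 with none), of which 22815 rows were matched to the RefSeq table of GRCm38.p6. The row with the highest mean stood for each gene. Genes entered the tests when at least 1 group mean was 5.27 or more, which is the median of all row means.

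A model with a mean for each of the 4 groups was fitted by limma 3.58.1 (R 4.3.3; functions lmFit and eBayes; 7 residual degrees of freedom, a prior of 2.13 degrees), and the fit was tested on simulated data. Named genes were up to 8 called members per direction and comparison, the 2 with the smallest p per complex, the isoform pairs, all of complex II, and up to 4 called genes per other list; those outside this are marked. The members and lists were chosen with earlier results of these data known. Alternatives changed the scaling, the filter, the rows, the variance model, the replicate block, the samples fitted and each array in turn. The use of a row on the gene's own chromosome, and the counts of lower and of not overlapping members without single arrays, were alternatives added after the values were seen. For the interaction, a fit of only the groups compared was not run, as it uses all groups.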

Additional observations from a re-analysis of the deposited data

How the results depend on the processing

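The median log2 difference of the members kept its sign in all 5 comparisons under every alternative run. Leaving out each array gave -0.706 to -0.488 for Nemo KO against wildtype, -0.556 to -0.399 for double KO against Cxcr6 KO, 0.218 to 0.469 for double KO against Nemo KO, 0.126 to 0.286 for Cxcr6 KO against wildtype and 0.001 to 0.25 for the interaction. Counts of members called were less stable. They ran from 0 to 26 for Nemo KO against wildtype and from 0 to 34 for double KO against Cxcr6 KO when an array was left out, and stayed at 0 in the other 3 comparisons; without a wildtype array the lone wildtype sample is assumed to vary like the other groups. Over all genes, leaving out an array gave 0 to 2380 calls for Nemo KO against wildtype, 116 to 2342 for double KO against Cxcr6 KO and 0 to 232 for the interaction. Centring each array on its median gave 29 calls in Nemo KO against wildtype (main 0), 7 in double KO against Cxcr6 KO (main 13) and 3 in double KO against Nemo KO (main 0). For double KO against Cxcr6 KO the count was 6 with no filter on low values, 32 when only the groups compared were fitted, 18 after quantile normalization, 12 with trend and robust variance and 11 with the replicate block. The calls among all genes were 929 (3.08%) with no filter, 1278 (6.97%) with trend and robust variance and 1507 (8.22%) with the block. With the block no member was called in the other comparisons. Same-numbered arrays deviated together with correlations from -0.272 to 0.275, so the numbers were not taken to pair samples. Over all genes, calls for Nemo KO against wildtype were 29 (9 higher, 20 lower), 1319 (89 and 1230) after centring, 11 (6 and 5) after quantile normalization, 7 with no filter and 0 with the block. Calls for double KO against Cxcr6 KO numbered 1358 (631 higher, 727 lower), 1119 (657 and 462) after centring, 1750 (651 and 1099) after quantile normalization and 2789 when only those groups were fitted. For double KO against Nemo KO centring gave 201 (main 109), the groups alone 11 and the block 61, and for Cxcr6 KO against wildtype centring gave 28 (main 47), no filter 24, the block 24 and the groups alone 0. Sdhc in double KO against Cxcr6 KO, not called, changed sign to -0.04 without Cxcr6 KO replicate 1 and to -0.14 without double KO replicate 1; with each array left out it ran from -0.14 to 0.12. The cause of these shifts was not tested. Of the named results, 170 of those under other settings kept their direction and side of the threshold, 9 passed it and 5 no longer did; with an array left out these were 200, 11 and 40.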
